A study of Oryza sativa with 18 samples.

Results

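R-loop regions that were cut to at most 50% of their control width in salt-treated rice seedlings numbered 526, out of 22988 regions with a peak in all 4 libraries of the salt experiment and 58496 regions in these 4 lists. Peaks of the 4 lists that shared at least 1 bp were merged into regions, the widths of all peaks of a library inside a region were summed, and a region was kept when each salt library had at most 0.5 times the width in each control library. The salt and control widths therefore chose these regions. Every value of the salt libraries against the controls is a description, and no test of it was made. An exact permutation test of 2 against 2 libraries cannot go below p = 0.33.

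The libraries come from wild-type (genotype WT) seedlings of Oryza sativa, with tissue labelled as seeding. The salt libraries (n = 2) were grown in hydroponics with 150 mM NaCl, and the CK(salt) libraries (n = 2) are their controls by title, although the treatment label gives 3 days of salt for both groups, a conflict that was not resolved. A second series titled by the amount of input DNA holds 1 library at 100 ng and 2 each at 250 ng, 500 ng, 1 µg, 3 µg, 5 µg and 8 µg, and 1 further library is titled RNaseH. The labels do not say how many plants were pooled, or that replicate libraries were made from different plants, and the spread between them may be technical.

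R-loops are structures of an RNA-DNA hybrid and the displaced DNA strand. They form mostly where RNA is transcribed, and RNase H, which degrades the RNA of a hybrid, removes them. In plants they have been mapped around gene starts, along gene bodies and in antisense orientation, and high salinity is a stress under which rice seedlings alter the transcription of many genes. In the assay used here, ISRH-seq, DNA sheared to 200 to 500 bp is incubated with the enzymes RNase H and DNA polymerase I, so that biotin-labelled DNA takes the place of the hybrid's RNA and can be captured and sequenced. A peak is the stretch over which the coverage of such fragments passes the caller's threshold, so its width follows the extent of the hybrid, the fragment length and the depth of the library. In DNA pooled from many cells, a shorter hybrid and a hybrid whose flank is present in fewer cells cannot be told apart.

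The 526 regions were broad in the controls and close to the length of single fragments under salt. Their median width was 286 bp in salt replicate 1 and 274 bp in salt replicate 2, against 836.5 bp in CK(salt) replicate 1 and 770 bp in CK(salt) replicate 2. The quartiles ran from 247 to 345 bp and from 229 to 333 bp in the salt libraries, and from 697 to 1009 bp and from 650 to 909 bp in the CK(salt) libraries. Over all 22988 regions with a peak in the 4 lists, the medians were 408 and 386 bp under salt and 580 and 498 bp in CK(salt). The 526 regions were thus wider than the common run of regions in both controls and narrower than it in both salt libraries. The geometric mean of the salt widths was 36.5% of that of the CK(salt) widths at the median region, which lost 509 bp. Over all shared regions the median loss was 109 bp.

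**Figure D1:**
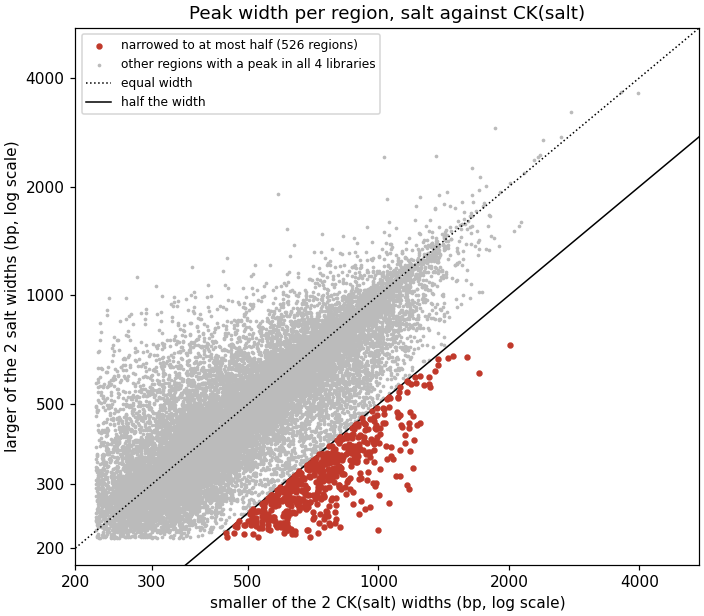
Each point is 1 of the 22988 regions with a peak in all 4 libraries, with the larger salt width (vertical, bp, log scale) against the smaller CK(salt) width (horizontal, bp, log scale). The 526 regions at or below the solid line of 0.5 times the width are shown in red, and no region has the mirrored difference of at least 2 times the width under salt.

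Among the shared regions, 2.29% met the rule and 0 met its mirror image, in which each salt width would be at least 2 times each CK(salt) width. A narrower peak under salt was common in general. Both salt widths lay below both CK(salt) widths in 14143 shared regions (61.5%), and both lay above in 220 (0.957%). Taken by single pairs of libraries, at most 50% of the width was found in 13.5% of shared regions for salt replicate 1 and in 17.9% for salt replicate 2 against CK(salt) replicate 1, and in 7.93% and 9.71% against CK(salt) replicate 2. At least 2 times the width was found in 0.0827% and 0.0783% against CK(salt) replicate 1 and in 0.809% and 0.457% against CK(salt) replicate 2. Libraries of 1 group also differed. Salt replicate 2 had at most 50% of the width of salt replicate 1 in 1160 shared regions, with the opposite in 678, and the corresponding counts for CK(salt) replicate 2 against CK(salt) replicate 1 were 1009 and 64.

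The 4 libraries differ in depth, in part along the groups and in part across them. Background coverage, solved from the deposited fold and p-value of each summit, came to 6.74 and 3.88 fragments per position under salt, against 8.60 and 4.30 for the CK(salt) controls. The lowest fold called at that background was 2.33 and 2.67 under salt and 2.08 and 2.45 in CK(salt). Within each replicate number the salt library was the shallower one, whereas salt replicate 1 was deeper than CK(salt) replicate 2 and was called down to a lower fold. Over all shared regions, the width in salt replicate 1 as a share of that in CK(salt) replicate 2 of the same region had a median of 87.3%. The smallest peak of a list was 213 and 188 bp in the salt lists and 229 and 223 bp in the CK(salt) lists. Of the 526 regions, 84 and 59 (16.0% and 11.2%) lay within 1.1 times that smallest width in the salt lists, compared with 5.39% and 4.12% of all shared regions. The count was 0 in either CK(salt) list, which the rule fixes by asking for wide CK(salt) peaks. When each width was divided by its library's median over the shared regions, a scaling added after the values were seen, 84 of the 526 regions still met the rule, no other region did, and 3 met the mirrored rule. Peak names of CK(salt) replicate 1 carry the word merge, which those of the other 3 lists lack, and lack the mark 3D that the other 3 carry. No label explains either mark, and whether this library is a matched control is not settled. The shares of regions cut to at most 50% given above were the higher ones against it. The part of depth, of the smallest peak width and of this difference between the control lists in the narrowing was not tested.

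In most of the 526 regions that could be measured the narrowing was one-sided, with one edge moving far more than the other. In 436 of the 526 regions each of the 4 lists held a single peak, so that the retreat of each edge could be measured as the mean edge position under salt against the mean in CK(salt). At the edge that moved more the median retreat was 412 bp, and at the other edge it was 56.8 bp. In all 12767 single-peak regions that were narrower under salt, which include these, the medians were 94.5 and 34 bp. The edge that moved less contributed under 20% of the total retreat in 297 of the 436 regions (68.1%), from 20 to 40% in 83 and at least 40%, a nearly even retreat of the mean edges, in 56 (12.8%). In 60 of the 436 regions the salt peaks of the replicates did not overlap. The mean salt edges then mix different parts of a region, and a retreat can look even though each salt library kept another part. How many of the 56 are of this kind was not counted. In all narrower single-peak regions the one-sided share was 37.9% and the even share 22.0%. Among the 84 regions that met the rule after scaling to library medians, 34 of 72 with single peaks were one-sided (47.2%). In 30 of the 436 regions the edge that moved less lay slightly farther out under salt. Left and right were used almost equally, with the larger retreat at the left edge in 234 regions and at the right edge in 202. The lists carry no strand, so left and right follow the chromosome coordinate and not transcription.

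**Figure D2:**
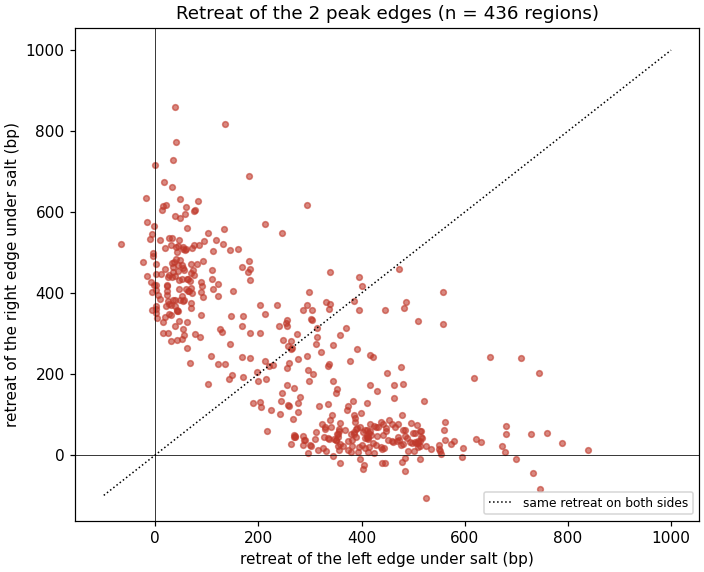
Each point is 1 of the 436 narrowed regions with a single peak in every list, with the retreat of the right edge under salt (vertical, bp) against that of the left edge (horizontal, bp). Points gather along both axes, where 1 edge retreated by about 400 bp and the other by under 100 bp, and few lie near the dotted line of equal retreat.

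The side of the retreat was mostly the same in both same-numbered pairs. Salt replicate 1 against CK(salt) replicate 1 and salt replicate 2 against CK(salt) replicate 2 have no library in common, and the same edge moved more in both pairs in 357 of the 436 regions (81.9%). Across these regions the left edge's share of the retreat correlated between the pairs with r = 0.56. Both values are descriptions, because the widths of both pairs chose the regions. The same share over other narrower regions is not given, so whether 81.9% is particular to the members is not known. The centre of the peak lay a median of 173 bp away from its place in CK(salt), compared with 26.8 bp over all single-peak shared regions.

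What remained under salt lay around much the same summit as in the controls. Summits of same-numbered salt and CK(salt) libraries were a median of 20 bp apart for replicate 1 and 29 bp for replicate 2, and over all single-peak shared regions these distances were 21 and 29 bp. The salt peaks of both replicates overlapped each other in 448 of the 526 regions. In the other 78 (14.8%) they were apart, so that the salt libraries kept different parts of the region, and 60 of these 78 had a single peak in each of the 4 lists. Of the 84 regions that met the rule after scaling, 24 had salt peaks apart. Salt peaks were apart in 184 (0.80%) of all shared regions. The CK(salt) peaks were apart in 0 of the 526 and in only 1 of all shared regions, so this 0 does not set the members apart. Among the 526 regions, several peaks in 1 region were more often found in the controls than under salt. There were 25 and 47 such regions in the CK(salt) lists and 11 and 19 in the salt lists. Over all shared regions the order was the opposite, with 210 and 577 in CK(salt) and 842 and 1292 under salt. The rule itself favours this reversal. Widths are summed, so an extra salt peak makes a region less likely to meet the rule and an extra CK(salt) peak makes it more likely. In 66 of the 526 regions at least 1 CK(salt) list held 2 or more peaks while both salt lists held 1. At least 1 salt list held 2 or more peaks in 24 of the 526 regions (4.56%) and in 7.42% of all shared regions.

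The regions with the strongest narrowing had control peaks of about 1 kb. On chromosome 11 from 18143725 to 18144813, peaks were 267 and 233 bp wide under salt and 1071 and 1058 bp wide in CK(salt). The left edge retreated by 40.5 bp there and the right edge by 774 bp. Input libraries covered 770 to 1089 bp of this region in the 12 lists with a peak, and 100 ng had none. On chromosome 5 from 24047106 to 24047992, the salt widths were 228 and 227 bp and the CK(salt) widths 816 and 818 bp, with a left retreat of 594 bp and a right edge that moved by -4.5 bp. On chromosome 9 from 15947802 to 15949435, the salt widths were 291 and 254 bp and the CK(salt) widths 1177 and 1268 bp, and both edges retreated, by 710 bp on the left and 240 bp on the right.

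The lowest ratio of all belonged to a weak region in which the salt libraries did not show the same remnant. It lay on chromosome 4 from 17276961 to 17278445, with 219 and 224 bp under salt and 1386 and 1000 bp in CK(salt). The salt peaks were 575 bp apart, and the score percentile within its own list was at most 33.3 in each of the 4 libraries. Of the 10 regions with the lowest ratios, 3 had salt peaks that were apart and 2 were one-sided. In these 10 the salt widths ran from 197 to 333 bp and the CK(salt) widths from 816 to 1455 bp.

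Among the 10 members with the strongest peaks the narrowing was mostly one-sided, as it was among the members in general. A score percentile above 90 in all 4 lists was found in 11 of the 526 regions, compared with 1630 (7.09%) of all shared regions. The highest-ranked member lay on chromosome 2 from 21425366 to 21426537, with 525 and 464 bp under salt and 1172 and 1056 bp in CK(salt), at percentiles from 99.3 to 99.8. Its left edge moved by 13.5 bp and its right edge by 606 bp. The second lay on chromosome 6 from 3328398 to 3329215, with 270 and 342 bp under salt and 786 and 754 bp in CK(salt). Here the input libraries fell into a narrow and a wide state. Replicate 2 at 3, 5 and 8 µg covered 287, 366 and 346 bp and the 100 ng library 217 bp, whereas the other 9 libraries covered 752 to 818 bp. Of the 10 highest-ranked members, 9 had a single peak in every list, and 8 of these 9 were one-sided. Among all 436 single-peak members the one-sided share was 68.1%, and 9 regions are too few to tell these shares apart.

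Some input libraries were also narrow on chromosome 2 from 8164658 to 8166079. The salt widths were 328 and 433 bp and the CK(salt) widths 1422 and 1135 bp. The input libraries covered 292 bp at 100 ng, 339 bp in 500 ng replicate 2, 353 bp in 1 µg replicate 2 and 380 bp in 5 µg replicate 1, and 643 to 1422 bp in the other 9. On chromosome 9 from 11352781 to 11353609, the salt widths were 361 and 399 bp and the CK(salt) widths 801 and 824 bp. Of the input libraries, 4 covered 337 to 450 bp of it, namely 100 ng, both 3 µg libraries and 5 µg replicate 1, and the others 660 to 829 bp. Widths close to those under salt were thus found in some input libraries at these regions, which are examples picked from the strongest members. The widths do not show whether those libraries kept the same part of a region as the salt libraries.

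The widest members differed in that most held several peaks. Of the 10 with the largest control widths, at 1307 to 2308 bp in CK(salt) and 273 to 728 bp under salt, 9 held 2 or more peaks in at least 1 salt list. On chromosome 3 from 10436812 to 10438359, both salt lists held 3 peaks that summed to 681 and 619 bp, where each CK(salt) list held a single peak of 1525 and 1483 bp. On chromosome 12 from 10542856 to 10545325, the widths were 728 and 402 bp under salt and 2012 and 2036 bp in CK(salt), where each CK(salt) list also held 2 peaks. Input libraries covered from 318 to 2412 bp of it, and 3 of the 13 had no peak.

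Regions just inside and just outside the threshold differed little. The 5 members nearest to it had a larger salt width of 49.9 to 50% of the smaller CK(salt) width, and the 5 nearest regions left out had 50.1 to 50.2%. Chromosome 9 from 16401746 to 16402468 was kept, with 265 and 296 bp under salt and 592 and 723 bp in CK(salt). Chromosome 6 from 23950673 to 23951381 was left out, with 317 and 338 bp under salt and 695 and 675 bp in CK(salt). Of the members, 152 had a ratio of at most 0.4 and 374 a higher one.

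In the input series, which the rule did not use, the 526 regions were about as wide as in the controls at high amounts and narrower at low ones. A peak was present in 208 of them (39.5%) at 100 ng, in 424 and 452 at 250 ng, 480 and 450 at 500 ng, 524 and 500 at 1 µg, 516 and 521 at 3 µg, 520 and 526 at 5 µg and in all 526 in both 8 µg libraries. Where there was a peak, the 100 ng library covered a median of 246 bp of the region, the 250 ng pair 549.5 and 625.5 bp, the 500 ng pair 624 and 611.5 bp, the 1 µg pair 761.5 and 646 bp, the 3 µg pair 703.5 and 742 bp, the 5 µg pair 661.5 and 780 bp and the 8 µg pair 820.5 and 828.5 bp. These medians lay above those of all shared regions in 12 of 13 libraries, the exception being 100 ng, where all shared regions had 291 bp. Background coverage was 0.881 at 100 ng, 4.82 to 7.84 from 250 ng to 5 µg and 11.4 and 12.7 at 8 µg, and between these ends depth did not follow amount. The deeper 250 ng library, replicate 1 at 6.10, had a higher coverage than 5 µg replicate 1 at 5.07 and a smaller median width in the 526 regions. Within the pairs at 1, 3, 5 and 8 µg the deeper replicate had the larger median width. Within the pairs at 250 and 500 ng it had the smaller one. From 1 to 5 µg the lowest median, 646 bp, came at a coverage of 4.99, and the highest, 780 bp, at 7.09. At the 100 ng and 8 µg ends amount and depth differ together, and their parts were not tested.

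**Figure D3:**
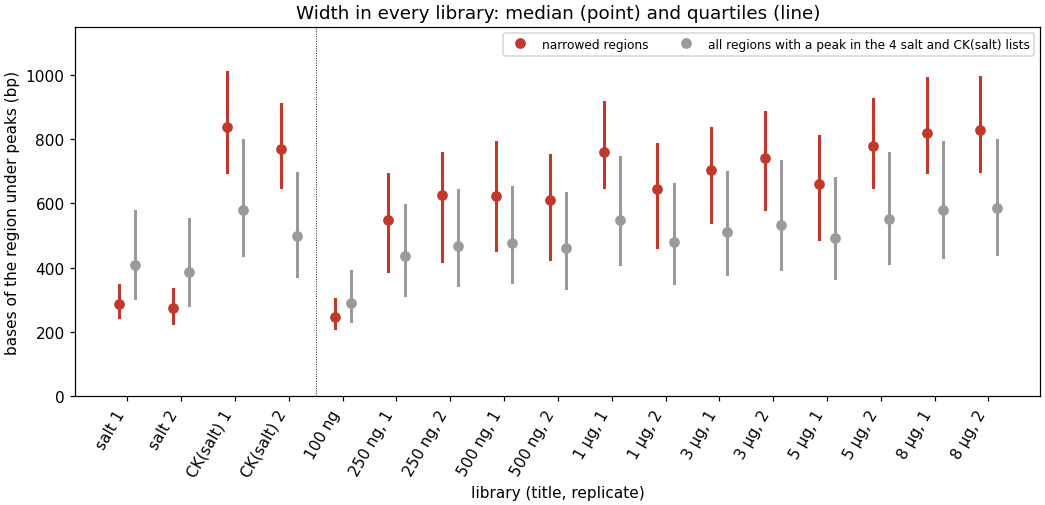
Points give the median and lines the quartiles of the bases under peaks per region (bp) in each of 17 libraries, for the 526 narrowed regions (red) and for all 22988 shared regions (grey). The narrowed regions lie below the grey points in both salt libraries and at 100 ng, and above them in the other 14 libraries.

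Relative to the controls, the narrowed regions held a median of 68.1 to 104% of the geometric mean CK(salt) width in the 12 input libraries from 250 ng upwards, where all shared regions held 77.7 to 106%. At 100 ng they held 30.8%, compared with 54.0% for all shared regions. On a log scale the width was nearer to that in CK(salt) than to that under salt in 59.7 to 97.3% of them in these 12 libraries, and in 7 of 208 (3.37%) at 100 ng. Over all shared regions with a peak the shares were 35.4 to 89.7% and 7.59%. A wide control peak is part of the rule, and this alone can place other libraries below it.

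Input widths of at most 50% of the smaller CK(salt) width were also more frequent among the 526 regions than the background, the share of all shared regions with a peak in the same library. At 100 ng they were found in 187 of 208 members (89.9%, background 33.8%). In the 250 ng libraries they were found in 99 and 84 members (23.3% and 18.6%, background 11.6% and 6.28%), and at 500 ng in 84 and 91 (17.5% and 20.2%, background 4.26% and 6.7%). At 1 µg the counts were 23 and 84 (4.39% and 16.8%, background 0.313% and 3.4%). The 3 µg libraries had 42 and 52 such members (8.14% and 9.98%, background 0.98% and 1.35%), the 5 µg libraries 75 and 21 (14.4% and 3.99%, background 1.75% and 0.482%) and the 8 µg libraries 8 and 6 (1.52% and 1.14%, background 0.0871% and 0.122%). Replicates of 1 amount could thus lie far apart, as at 1 µg and 5 µg. At both amounts the shallower replicate had the larger share. Its background coverage was 4.99 compared with 7.84 at 1 µg, and 5.07 compared with 7.09 at 5 µg. The shallower replicate also had the larger share at 8 µg, and the deeper one at 250 ng, 500 ng and 3 µg. The part of depth was not tested. In the 12 libraries other than 100 ng, 272 regions (51.7%) were that narrow in at least 1, compared with 17.4% of all shared regions, and 108 (20.5%) in at least 3, compared with 3.29%. The CK(salt) widths enter both this measure and the choice of the members. The background also holds 7721 regions with a smaller CK(salt) width under 400 bp, and no member is that narrow in CK(salt). There, 0.5 times the width comes near or below the smallest peaks of the lists, so such regions can hardly count. A background matched to the members in width was not taken, and it could be higher. Several peaks within 1 region were seen in 3.10 to 15.4% of the members in these 12 libraries and in 1.47 to 4.02% of all shared regions, and among the members the share was highest in 5 µg replicate 1.

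Where the 100 ng library had a peak, it mostly kept the same side of these regions as the salt libraries did. Its edges were set against the mean edges of both 8 µg libraries, so that no library was shared with the salt comparison, over regions with a single peak in every list concerned. The edge with the larger retreat was the same at 100 ng as under salt in 146 of 169 regions (86.4%), and in 113 of 121 of the one-sided ones (93.4%). In the 10 input libraries from 250 ng to 5 µg it was the same in 52.5 to 60.3%. Over all single-peak shared regions, most of which had small retreats on either side, the values were 58.7% at 100 ng and 50.8 to 53.3% in the other 10. At 100 ng the larger retreat of the one-sided regions was 495.5 bp at the median and the smaller 92.5 bp, and at 250 ng the larger was 208.5 and 168 bp.

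The part kept by both salt libraries also held the summits of most input libraries. This part was 239 bp long at the median in the 376 single-peak regions where the salt peaks overlapped, or 32.9% of the CK(salt) width. The 100 ng summit fell within it in 154 of 164 regions (93.9%), and the 8 µg summit in 341 and 345 of 376 (90.7% and 91.8%). The share was lowest in 250 ng replicate 1, with 132 of 309 (42.7%). Over all shared regions, where this part made up a median of 67.9% of the CK(salt) width, the shares were 97.2%, 96.0% and 96.2%, and 66.9% in 250 ng replicate 1.

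**Figure D4:**
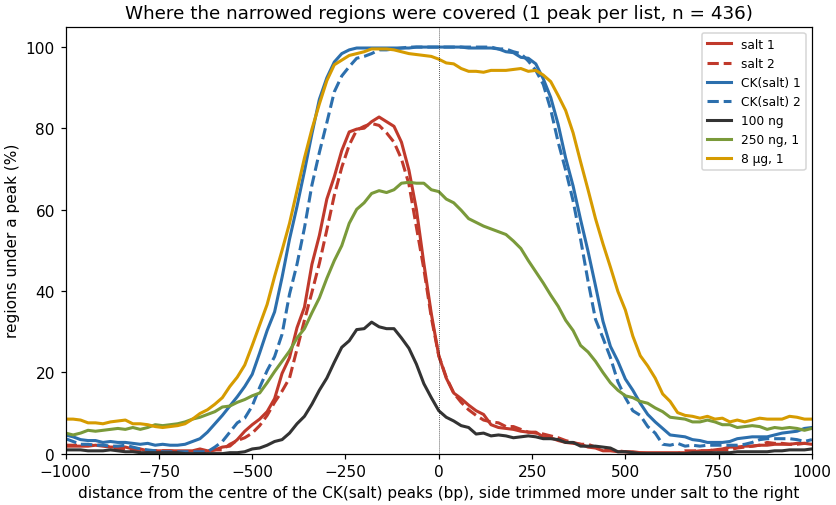
The share of the 436 single-peak narrowed regions under a peak (vertical, %) is shown by distance from the centre of the CK(salt) peaks (horizontal, bp), with each region turned so that the edge trimmed more under salt lies to the right. Both salt libraries and the 100 ng library cover the left part, whereas CK(salt) and 8 µg replicate 1 cover both parts and 250 ng replicate 1 lies between. The turning used the salt and CK(salt) edges, so only the input curves are independent of it.

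The narrowed regions had lower scores than shared regions within their range of control width. The median score percentile of their best peak within its own list came to 47.8 and 47.5 under salt, against 68.7 and 58.1 for CK(salt). All shared regions had medians of 62.5 and 64.0 and of 76.2 and 69.4 in the same lists. Of the 13045 shared regions whose smaller CK(salt) width lay within the range of the members, the medians were 69.8 and 71.4 under salt and 81.6 and 77.4 in CK(salt). The members' median was also the lower one in 13 of 13 input libraries, for instance 77.3 compared with 82.7 in 8 µg replicate 1. By the lower of their CK(salt) percentiles, the rule was met by 3.35% of the shared regions in the weakest of 5 equal classes and by 1.09% in the strongest, although strong regions were wider.

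The share of regions that met the rule rose with control width up to the class from 700 to below 800 bp and fell gradually above it. The rule was met by 0 of 7721 shared regions with a smaller CK(salt) width under 400 bp, where 0.5 times the width comes near or below the smallest peaks of the salt lists, and by 10 of 4484 (0.223%) from 400 to 499 bp. From 500 to below 600 bp it was met by 76 of 3263 (2.33%). From 600 to 1199 bp the share was between 5.33 and 6.60%. It was 16 of 332 (4.82%) from 1200 to below 1500 bp, and 3 of 84 (3.57%) at 1500 bp or more. The length of the merged region was 886.5 bp at the median among the members, from 521 to 2556 bp, and 628 bp over all shared regions.

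**Figure D5:**
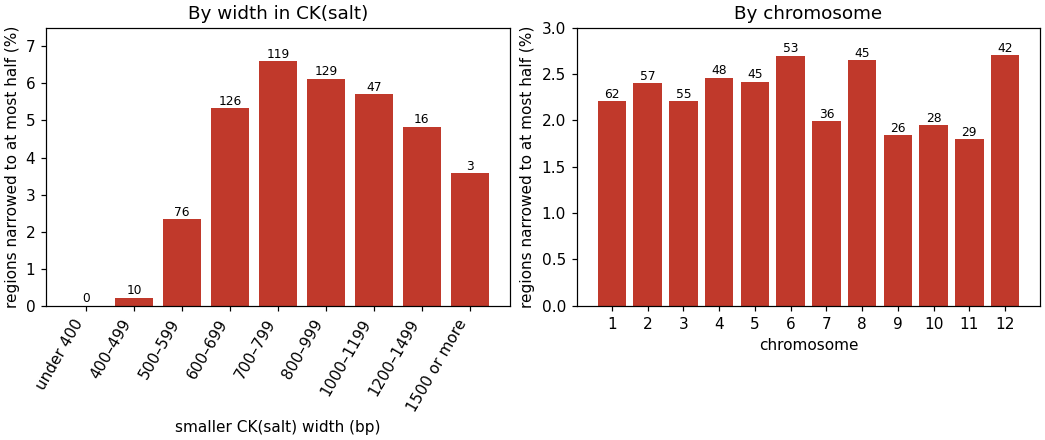
Bars give the share of shared regions that narrowed to at most 50% (vertical, %), by the smaller CK(salt) width (left, bp) and by chromosome (right), with the number of members on each bar. By width the share is highest from 600 to 1199 bp, at 5.33 to 6.60%, and by chromosome it runs from 1.8% on chromosome 11 to 2.70% on chromosome 12.

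The 526 regions were scattered over all 12 chromosomes in near proportion to the shared regions. Chromosome 1 held 62 of them, chromosome 2 held 57, chromosome 3 held 55 and chromosome 6 held 53, and the fewest were the 26 on chromosome 9. As a share of the shared regions of a chromosome they ran from 1.8% on chromosome 11, with 29 of 1615, to 2.70% on chromosome 12, with 42 of 1554. Measured from the nearer chromosome end, taken as the outermost peak of any list, the median position was 25.3% of the chromosome length for the members and 24.5% for all shared regions. The outer 10% on each end held 103 members (19.6%) and 19.8% of the shared regions.

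The members were mostly isolated from one another. Neighbouring members on a chromosome were a median of 466 kb apart, and 12 of 514 such gaps were under 10 kb. The closest pair lay on chromosome 2, from 24332039 to 24332763 and from 24333263 to 24334016, with 499 bp between them. Of 379 windows of 1 Mb, 285 held at least 1 member. The fullest window held 6 members among 72 shared regions, on chromosome 3 from 17 to 18 Mb. The nearest other region of the 4 lists lay a median of 2493 bp away from a member and 2288 bp away from a shared region.

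None of the narrowed regions overlapped a peak of the library titled RNaseH, in which 97 of the 22988 shared regions (0.422%) had one. The 0 of 526 allows a share of up to 0.570%, so a difference from the shared regions was not detectable. A peak in all 13 input libraries, and thus in all 17 libraries other than RNaseH, was found in 162 of the 526 (30.8%) and in 9189 (40%) of all shared regions. In the 12 input libraries without 100 ng, 377 (71.7%) had a peak in each, compared with 64.3% of all shared regions, so the lower share over the 13 libraries goes with the 100 ng list.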

How the data were processed

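Genomic DNA of rice seedlings was profiled by ISRH-seq in 18 libraries. The submitters' processing notes name Bowtie2 and MACS2 2.1.4. The genome build, any control library and the handling of duplicates are not given in the sources used here. Each library has its own deposited list of peaks. The score in it is the authors' −log10 q-value multiplied by 10 and cut to a whole number, their fold is the ratio of pileup at the summit to local background, and the deposited p-values and q-values are given as −log10. Fold and score are the authors' values. Score percentiles rank the peaks within a list by the deposited q-value, and fold was used for the depth. The lists give no read counts, and depth was taken as the most frequent background solved from fold and p-value.

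Titles were used to group libraries. Lists were merged and measured with Python 3.11.15, numpy 2.4.6 and pandas 2.3.3. Coordinates are printed 1-based, with both ends included. The merging and the rule were tested on simulated data. Named regions are, among the members, the 10 with the lowest ratio of the larger salt to the smaller CK(salt) width, the 10 widest in CK(salt), the 10 with the highest lowest-of-4 score percentile, and the 5 on each side of the threshold, of which examples are printed. In an input library, the width is the bases of the region under peaks. The members and lists were chosen with earlier results of these data known. The replicate numbers were checked for pairing through the correlation of replicate differences in log2 width between salt and CK(salt) over shared regions, which was 0.099. Genes and sequence at these regions were not analysed here.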

Additional observations from a re-analysis of the deposited data

How the results depend on the processing

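The number of narrowed regions depends on the settings, and more regions narrowed than widened under each of them. A threshold of 0.4 gave 152 and of 0.6 gave 1095, with 0 and 2 regions widened by the mirrored rule. The widest single peak in place of the summed width gave 814. Of 2 scalings chosen after seeing the data, division by each library's median left 84 narrowed and 3 widened, and subtraction of the smallest peak width gave 1976 and 32. Lists of equal length gave 421 narrowed and 1 widened, and the span from first to last edge 570 and 1. With 1 of the 4 libraries left out, 697 to 2281 narrowed and 0 to 27 widened, as fewer libraries then have to agree. These were 697 and 27 without CK(salt) replicate 1, 1676 and 0 without CK(salt) replicate 2, 2281 and 18 without salt replicate 1, and 1633 and 12 without salt replicate 2. With the replicate number as a block, each salt library being set against its same-numbered control only, 700 narrowed and 0 widened. The correlation of replicate differences (0.099), from 2 pairs, does not settle whether same-numbered libraries belong together, and they were not treated as pairs. The edge that moved less contributed a median of 12.1% of the retreat, 10.8% in pair 1 and 8.04% in pair 2 alone, and 8.39 to 13.7% with 1 library left out. The mean share of members nearer in width to CK(salt) over the 13 input libraries was 74.0%, and 72.0 to 79.9% with 1 library left out. Causes of these shifts were not tested, apart from the fewer libraries. Without replicates beyond 2 and without read counts, no error can be given for the width of a single region.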
